A study of Mus musculus with 2 samples.

Results

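The 10 genes described here make up the core of MHC class I antigen presentation: the heavy chains H2-K1 and H2-D1, their light chain B2m, the peptide transporter Tap1 and Tap2, the loading factor Tapbp, the inducible proteasome subunits Psmb8, Psmb9 and Psmb10, and the regulator Nlrc5. They were chosen by symbol, and all 10 were found among the 32285 genes of the table. Cultured vascular smooth muscle cells (VSMCs) from the aorta of C57BL/6 mice, used within 3 passages, were compared in 4 groups: young (mice of 12 weeks), old (mice of 58 to 78 weeks), young with angiotensin II (AngII) at 100 nM for 48 h, and old transfected with an siRNA pool against Piezo1 (siPiezo1). The siRNA dose was 20 nM in the labels and methods, while another passage of the study gives a higher dose for this model. Antibodies with a DNA barcode, called hashtags, marked each group before all were pooled into 1 droplet library, in which unique molecular identifiers (UMIs) count RNA molecules. The methods name 2 vendors of primary cells and do not say which was used for which group here, and how many animals a culture came from is not given. Whether the old cells without siPiezo1 received the non-targeting control siRNA is not stated for this library.

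Nucleated cells continuously display peptides from their own proteins on class I molecules. Proteasomes cut proteins into peptides, the Tap1 and Tap2 transporter carries these into the endoplasmic reticulum, Tapbp (tapasin) holds empty class I molecules at the transporter, and the loaded heavy chain and B2m travel to the surface, where CD8 T cells read them. Interferons are the classic inducers of the pathway, and under them Psmb8, Psmb9 and Psmb10 replace the standard catalytic subunits Psmb5, Psmb6 and Psmb7.

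A barcode with at least 2218 gene UMIs and at least 200 genes was taken as a cell, which gave 13045 cells. A cell received a tag when only that tag exceeded its cutoff of 36, 52, 61 or 41 UMIs for tags 1 to 4. Tag 1 held 3144 cells with a median of 6816.5 UMIs, tag 2 held 497 with 10663, tag 3 held 1500 with 9453.5 and tag 4 held 1529 with 9792. No tag was called in 5307 cells (40.7%), and 1068 carried more than 1. Tag 1 was read as young, tag 2 as old, tag 3 as young + AngII and tag 4 as old + siPiezo1, after the numbering of the study's schematic, where nothing states that tags are meant. Levels are given as UMIs per 1000000 gene UMIs of the tag's cells (CPM). The siRNA target Piezo1 had overlapping levels in tag 2 (89.6 CPM, 82.0 to 97.9) and tag 4 (86.9 CPM, 82.4 to 91.5), so it does not check the label of tag 4. The study reports that siPiezo1 lowered Piezo1 in this library, by qRT-PCR and by staining. Such a drop was not seen between these 2 tags, and the reason was not tested. The share of cells with Y-linked and no Xist UMIs was 54.1% in tag 1, 19.5% in tag 2, 55.5% in tag 3 and 13.8% in tag 4. Each group was 1 culture, so no test between groups was possible. Every interval is an exact 95% interval that covers counting error only.

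All 10 genes were highest in tag 1. Their ratios of tag 2 to tag 1 ran from 0.0197 (Psmb9) to 0.499 (Nlrc5) with a median of 0.203, beside a median of 1.02 over the 10265 genes with at least 5 CPM over all cells. All 10 were at least 2-fold lower in tag 2, as were 5.31% of the 10265 genes. The 5 CPM level was taken over all cells, so genes high in tag 1 pass it more easily. Psmb9 was at 0.717, 2.41 and 2.05 CPM in tags 2 to 4, and Tap2 was under 5 CPM in tags 2 and 4. Both reached the level only with the cells of tag 1 counted, so they are no separate support for lower levels elsewhere. In tag 3 against tag 1, 9 of 10 were at least 2-fold lower, where 3.77% of all tested genes were, and the median ratio was 0.309 beside 1.03. B2m, at 0.546 (0.537 to 0.556), was the member short of 2-fold. The interval of the ratio lay below 1 for each of the 10 members in both comparisons, which share the cells of tag 1. With bulk sums over 1 culture, fewer cells with these transcripts and fewer transcripts per cell cannot be told apart from the sums alone, and the values per cell are given further on.

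**Figure D1:**
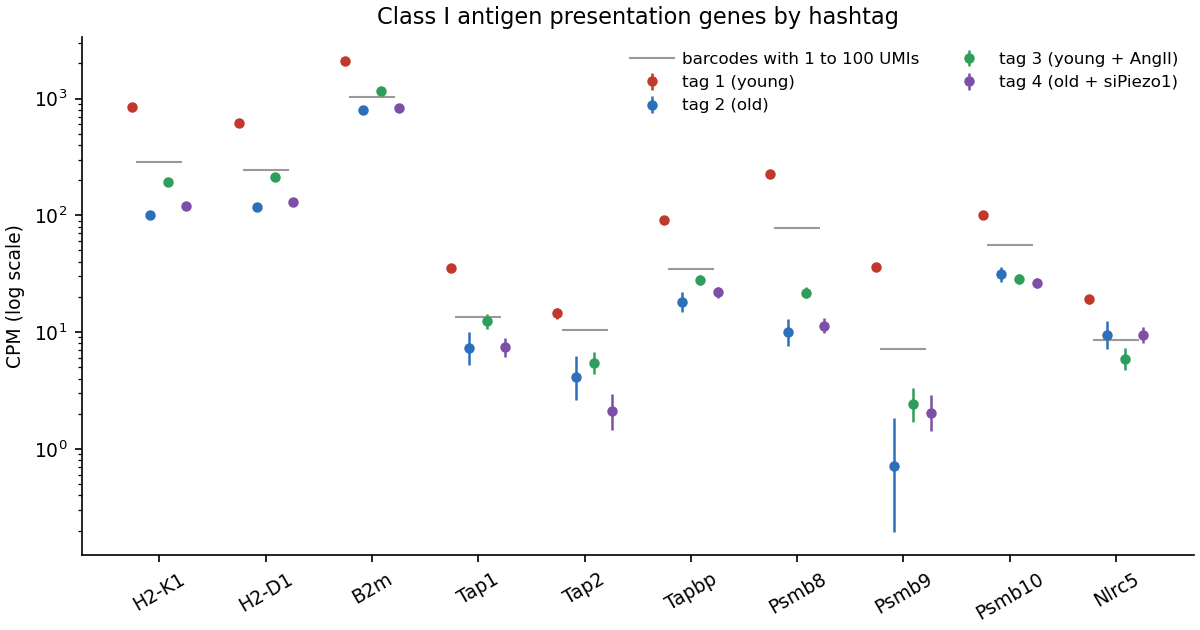
Level of each of the 10 genes (CPM, log scale) in the 4 tags, with exact Poisson intervals as bars, and the level in barcodes with 1 to 100 UMIs as a grey dash. Tag 1 is the highest of the 4 for every gene, while tags 2 and 4 are close for all but Tap2 and Psmb9.

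The heavy chain genes H2-K1 and H2-D1 encode the 2 classical class I molecules of this strain, and B2m encodes the invariant light chain that both need to reach the surface. H2-K1 reached 854 CPM (842 to 865) in tag 1, against 101 (92.4 to 109) for tag 2, 195 (188 to 202) for tag 3 and 120 (114 to 125) for tag 4. H2-D1 was at 618, 117, 212 and 130 CPM in tags 1 to 4. B2m, the most abundant member, was at 2106, 796, 1150 and 833 CPM. All 3 genes had the same order, tag 1, tag 3, tag 4 and tag 2 from high to low, though the intervals of tags 4 and 2 met for H2-D1 and for B2m (819 to 847 and 773 to 820). H2-K1 was 8.49 times higher in tag 1 than in tag 2 (7.80 to 9.24) and H2-D1 5.28 times (4.88 to 5.72), while B2m was 2.64 times higher (2.57 to 2.73). In tag 1 against tag 3 these ratios were 4.38, 2.91 and 1.83.

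The promoters of these genes are shown because the members are set against Ifit3, an interferon-stimulated gene, further on. Each is the 200 bases before the start site from RefSeq (GRCm38.p6), 5′ to 3′ on the gene's strand, with matches to GAAANNGAA (a short form of the interferon-stimulated response element), GAANNGAAA (the form in the class I heavy chain genes) and GGGGATTCC (an NF-kB site) in capitals. Both strands were searched, and a match on the other strand reads as its reverse complement. No 2 matches overlap in these windows. RefSeq gave 2 windows for H2-K1, and only the first listed was used. The windows are chr17:34000348-34000547 (minus strand) for H2-K1, chr17:35262894-35263093 (plus) for H2-D1, chr2:122147487-122147686 (plus) for B2m and chr19:34583329-34583528 (plus) for Ifit3.
H2-K1: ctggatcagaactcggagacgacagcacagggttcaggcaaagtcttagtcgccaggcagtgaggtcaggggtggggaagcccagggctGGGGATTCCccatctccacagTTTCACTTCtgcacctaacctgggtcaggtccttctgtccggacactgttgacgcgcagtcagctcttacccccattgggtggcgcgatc
H2-D1: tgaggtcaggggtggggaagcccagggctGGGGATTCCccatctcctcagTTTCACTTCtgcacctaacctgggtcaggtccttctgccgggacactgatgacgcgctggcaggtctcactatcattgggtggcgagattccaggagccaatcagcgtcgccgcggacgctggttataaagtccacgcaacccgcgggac
B2m: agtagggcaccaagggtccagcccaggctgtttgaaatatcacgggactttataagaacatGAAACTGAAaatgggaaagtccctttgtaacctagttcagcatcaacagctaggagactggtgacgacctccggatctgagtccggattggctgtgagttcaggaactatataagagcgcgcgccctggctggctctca
Ifit3: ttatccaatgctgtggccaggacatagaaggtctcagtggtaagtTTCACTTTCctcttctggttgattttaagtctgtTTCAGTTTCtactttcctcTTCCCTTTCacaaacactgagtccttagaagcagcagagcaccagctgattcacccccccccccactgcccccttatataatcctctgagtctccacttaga
H2-K1 and H2-D1 hold the same pair of matches side by side, and over the 140 bases that align their promoters were 90.7% identical. GGGGATTCC was found in 0.155% of the 27025 promoters of this length, GAANNGAAA in 5%, and GAAANNGAA, with 1 match in B2m and 3 in Ifit3, in 5.62%. A window was at hand for 8 members, all but Tap2 and Nlrc5. Neither interferon motif was found in the windows of Tap1, Tapbp, Psmb8, Psmb9 or Psmb10. The windows of H2-D1, Tapbp, Psmb8 and Psmb9 lie within the gene as GENCODE places it. Other start sites were not searched, so a lack of matches holds for these windows only. GAANNGAAA also had a match in Psmb6, 1 of 2 standard subunits with a window, whose level did not follow the members. A STAT site (TTCNNNGAA, in 5.62% of promoters) was found in Psmb8 and in no other member's window. These motifs were chosen with the promoters in view, and a match or its lack is a description of the letters only.

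Tap1 and Tap2 are the 2 chains of the peptide transporter. Tap1 reached 35.4 CPM (33.1 to 37.9) in tag 1, against 7.35 (5.28 to 9.97) for tag 2, 12.4 (10.7 to 14.3) for tag 3 and 7.45 (6.18 to 8.91) for tag 4. Tap2 had 14.5 CPM (13.0 to 16.1) in tag 1, then 4.12 (2.61 to 6.19) for tag 2, 5.49 (4.37 to 6.82) for tag 3 and 2.11 (1.46 to 2.95) for tag 4. Tags 2 and 4 were alike for Tap1, whereas Tap2 was lowest in tag 4, with an interval that overlaps that of tag 2. Tapbp was at 91 CPM in tag 1, 18.1 in tag 2, 28.0 in tag 3 and 22 in tag 4, which is 5.03 times higher (4.12 to 6.20) in tag 1 than in tag 2. Tap1, Tap2, Psmb8 and Psmb9 are neighbours within the MHC on chr17:34181987-34216321 (GRCm38), and Tap1 and Psmb9 are read in opposite directions from start sites 226 bases apart.

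The inducible proteasome subunits held both the widest and one of the narrower differences. Psmb8 reached 227 CPM (221 to 233) in tag 1, against 10.0 (7.58 to 13.0) for tag 2, 21.7 (19.4 to 24.2) for tag 3 and 11.4 (9.78 to 13.1) for tag 4, so it was 22.6 times higher (17.4 to 30) in tag 1 than in tag 2. Psmb9 had 36.4 CPM (34.1 to 38.9) in tag 1, then 0.717 (0.195 to 1.84) for tag 2, where it rests on 4 UMIs, 2.41 (1.69 to 3.34) for tag 3 and 2.05 (1.41 to 2.88) for tag 4. Psmb10 was at 99.7 CPM in tag 1 and at 31.2, 28.7 and 26.2 in tags 2, 3 and 4, whose intervals overlap. The standard subunits did not follow. Psmb5 was at 249, 254, 229 and 233 CPM, and of 14 standard alpha and beta subunits none was past 2-fold in any of the 3 comparisons, with median ratios of 0.874, 0.88 and 0.952.

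The exchange was also read within each tag, as UMIs of an inducible subunit per 100 UMIs of the standard subunit it replaces, a ratio that does not depend on the total of the library. Psmb8 per 100 Psmb5 was 91.4 (88.1 to 94.8) for tag 1, against 3.95 (2.97 to 5.16) for tag 2, 9.47 (8.42 to 10.6) for tag 3 and 4.89 (4.19 to 5.67) for tag 4. Psmb9 per 100 Psmb6 was 17.8, 0.370, 1.43 and 1.08. Psmb10 per 100 Psmb7 was 78.5 (74.3 to 82.8) in tag 1 and 25.4, 24.6 and 24.8 in the other tags, where the 3 intervals overlap. Capture can differ between 2 genes, so each ratio is read across tags and not as a share of proteasomes.

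**Figure D2:**
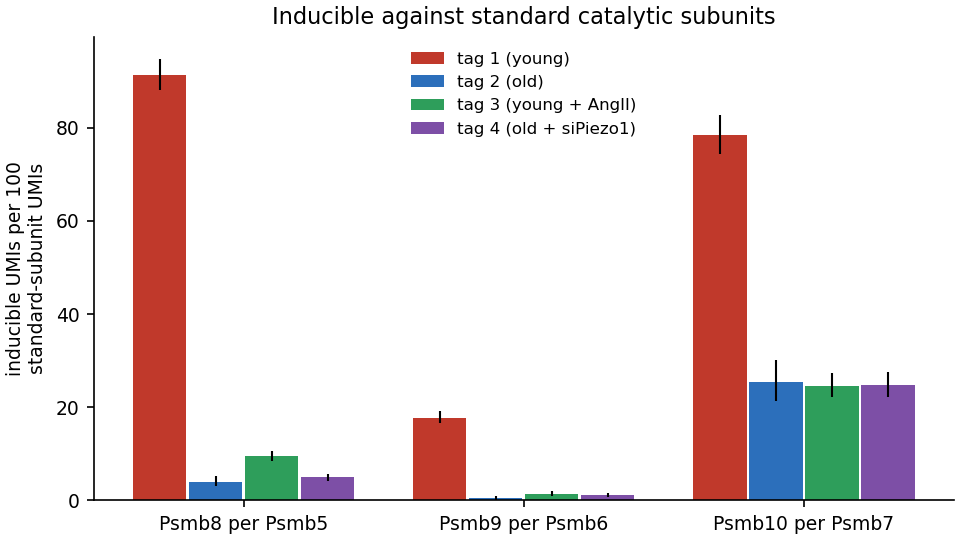
UMIs of each inducible subunit per 100 UMIs of its standard partner in the 4 tags, with exact intervals as bars. Psmb8 is at 91.4 per 100 Psmb5 in tag 1 and at 9.47 or less in the other tags, and Psmb10 is at 78.5 against 24.6 to 25.4.

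Nlrc5, the regulator that drives transcription of the class I genes, was the member with the smallest difference between tags 1 and 2. It reached 19 CPM (17.3 to 20.9) in tag 1, against 9.50 (7.12 to 12.4) for tag 2, 5.89 (4.73 to 7.26) for tag 3 and 9.44 (8.0 to 11.1) for tag 4. Tag 3 was thus its lowest level, with an interval that meets that of tag 2. Yet tag 3 had the second highest level of H2-K1, H2-D1, B2m, Tap1, Tap2, Tapbp, Psmb8 and Psmb9. That rank is unsure for Tap2 and Psmb9. The interval of tag 3 overlaps that of tag 2 for Tap2 and those of tags 2 and 4 for Psmb9. Of 14 further regulators that could be tested, 5 were at least 2-fold lower in tag 2 than in tag 1 and 4 in tag 3. The shares over all tested genes were 5.31% and 3.77%. Irf7, a transcription factor of the interferon response, was at 265, 12.0, 36.6 and 9.13 CPM in tags 1 to 4. Stat2, which carries the signal of the interferon receptors, was at 86.0, 14.2, 28.9 and 15.1 CPM and Irf1 at 16.5, 4.30, 5.02 and 7.14. Rfx5, a subunit of the complex that binds the class I promoters with Nlrc5, was at 5.39, 6.45, 4.82 and 7.82 CPM.

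Genes next to the members in the pathway split in the same way. Of 15 listed class I and class I-like genes 13 were found, and 8 had at least 5 CPM over all cells. Of those 8, 6 were at least 2-fold lower in tag 2 than in tag 1 and 7 in tag 3, beside 5.31% and 3.77% of all tested genes. The 5 CPM level over all cells favours genes high in tag 1, and H2-Q6 was under it in tags 2 to 4. Among the lower genes were H2-Q7 (102, 2.69, 6.03 and 6.27 CPM) and H2-Q6 (32.0, 1.26, 0.937 and 1.06 CPM). These Q genes are near-identical copies, so how their reads were split between them is uncertain. Psme1 and Psme2, the activator cap that interferon induces, were at 172 and 197 CPM in tag 1 and at 46.2 to 75.8 in the other tags, while Psme3 and Psme4 stayed within 2-fold. Of 7 loading and assembly genes only Erap1, the peptidase that trims peptides for class I, was past 2-fold (16.6, 4.30, 5.16 and 5.28 CPM). The chaperones Hspa5 and Pdia3 stayed within 2-fold. Earlier results of these data had shown the list of interferon-stimulated genes. All 23 of them that were tested were at least 2-fold lower in tags 2 and 3 than in tag 1, beside 5.31% and 3.77% of all tested genes. None of 7 receptor and kinase genes of interferon signalling was. The interferon genes themselves were near 0, with Ifnb1 at 0.124 CPM in tag 1 and at 0 UMIs in the other tags. Of 8 class II genes only H2-DMa reached the level for testing, at 9.66, 11.7, 13.7 and 9.13 CPM.

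The old cells of tags 2 and 4 differed little in these genes. The median ratio of tag 4 to tag 2 was 1.08, beside 1.02 over all tested genes. Psmb9 was the 1 member past 2-fold (2.86, 1.02 to 11.1), where 0.964% of tested genes were in either direction and 0.546% upward, and the 4 UMIs in tag 2 set the width of that interval. Tap2 was at 0.512 (0.293 to 0.910). H2-K1 (1.19, 1.08 to 1.31), H2-D1 (1.12, 1.02 to 1.22) and B2m (1.05, 1.01 to 1.08) were slightly higher in tag 4. With other tag calls and cell filters H2-K1 ran from 1.02 to 1.39. H2-D1 ran from 0.812 to 1.16 and B2m from 0.946 to 1.11, so their direction was not stable. The intervals of Tap1, Tapbp, Psmb8, Psmb10 and Nlrc5 held 1. The cells of tag 2 are shared with the comparison to tag 1.

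**Figure D3:**
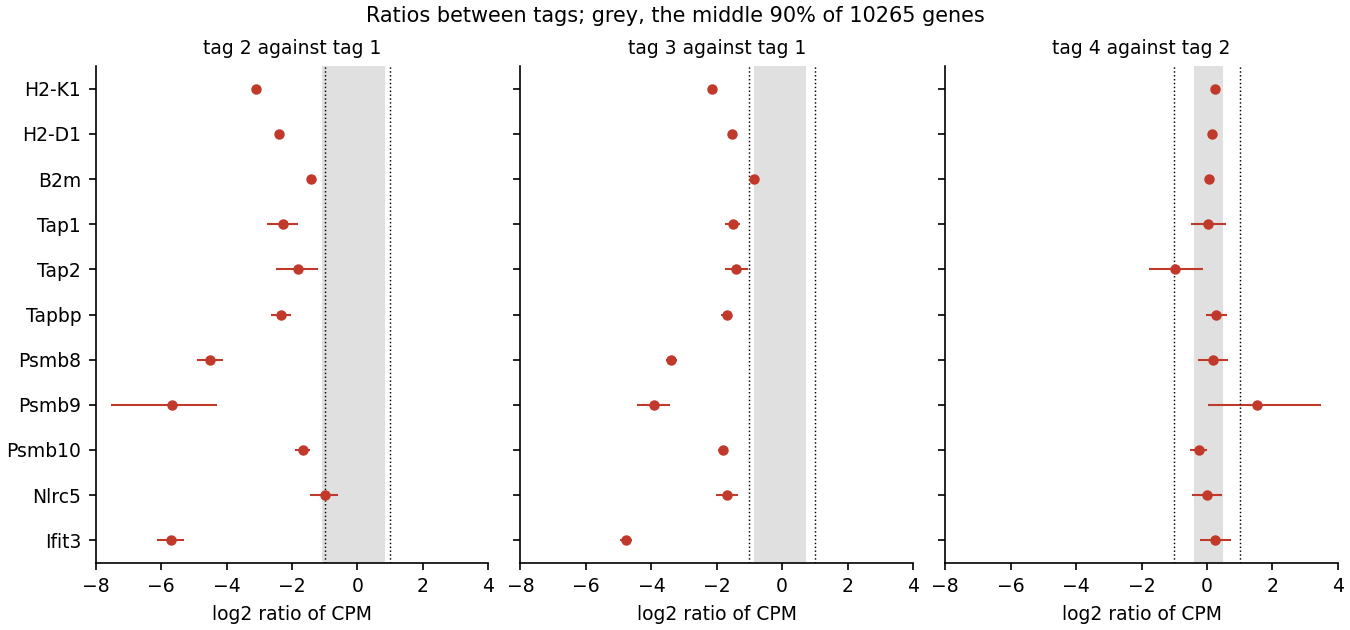
Log2 ratio of CPM for the 10 members and Ifit3 in the 3 comparisons, with exact intervals as bars, dotted lines at 2-fold and a grey band for the middle 90% of the 10265 tested genes. In tags 2 and 3 against tag 1 the members lie to the left, with Psmb9 and Psmb8 lowest, and in tag 4 against tag 2 they lie around 0 apart from Tap2 and Psmb9.

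To see whether the difference lay in a few cells, each cell was thinned to 5000 UMIs, which left out 747, 21, 136 and 114 shallower cells of tags 1 to 4. The summed UMIs of the 10 genes per cell had a median of 20 in tag 1 (10th to 90th percentile 9 to 35), 5 in tag 2 (2 to 10), 8 in tag 3 (3 to 15) and 5 in tag 4 (2 to 11). A sum of at least 20 was found in 53.2% of the cells of tag 1, 0.630% of tag 2, 3.74% of tag 3 and 0.636% of tag 4. The distributions of this sum were thus shifted as a whole. The sum speaks mainly for B2m, H2-K1 and H2-D1, the most abundant members. Tap1, Tap2, Tapbp, Psmb9, Psmb10 and Nlrc5 each had a median of 0 UMIs per thinned cell in every tag. At least 1 H2-K1 UMI was found in 92.5% of thinned cells of tag 1 (91.4 to 93.6), against 38.7% for tag 2 (34.3 to 43.2), 58.1% for tag 3 (55.5 to 60.8) and 43.5% for tag 4 (40.9 to 46.2), and without thinning in 95.3%, 59.6%, 75.7% and 61.7%. No cell type without class I was at hand to set a background share. If every Ifit3 UMI in tags 2, 3 and 4 came from free RNA, with the make-up of barcodes with 1 to 100 UMIs, free RNA would hold 6.91%, 13.1% and 8.19% of their UMIs. That bound would account for 19.3% to 19.6% of the H2-K1 level in those tags and 8.86% to 11.7% of B2m, but for 47.1% to 56.0% of Psmb8 and 28.6% to 68.9% of Psmb9.

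The relation to Ifit3 was taken within tag 1, the tag in which Ifit3 was abundant (484 CPM against 9.32, 17.7 and 11.1 in tags 2 to 4). Thinned cells were divided by Ifit3 into 565 with 0 UMIs, 472 with 1, 907 with 2 to 4 and 453 with at least 5. H2-K1 was at 633, 783, 946 and 1090 CPM across these steps, and the intervals of neighbouring steps did not overlap. H2-D1 (510, 600, 691 and 762), B2m (1803, 2042, 2283 and 2657), Psmb8 (174, 202, 249 and 283) and Psmb10 (63.0, 86.9, 115 and 139) were also higher at every step, with some overlap between neighbouring intervals for Psmb8 and Psmb10. Tapbp and Psmb9 were higher at every step as well, whereas Tap1 (25.8, 37.3, 36.4 and 52.5), Tap2 (9.20, 16.5, 19.2 and 17.7) and Nlrc5 (14.2, 21.6, 18.5 and 27.4) were not. The ratio of the highest to the lowest step ran from 1.47 for B2m (1.42 to 1.53) to 2.21 for Psmb10 (1.83 to 2.67), with a median of 1.93 beside 0.925 over all tested genes, and its interval lay above 1 for each of the 10. Tap1 (2.03), Psmb9 (2.06) and Psmb10 were past 2-fold upward, as were 1.26% of tested genes. Psmb5 was at 0.956 (0.856 to 1.07) and Acta2, the smooth muscle actin, at 1.0 (0.915 to 1.10). Actb was lower in the highest step, at 0.833 (0.815 to 0.852), and Gapdh slightly higher, at 1.09 (1.05 to 1.14).

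The steps of Ifit3 also differed in other ways. Median UMIs before thinning were 8686 in the cells with 0 Ifit3 UMIs and 6863 in those with at least 5. Scrublet called 42.1% of the cells with 0 Ifit3 UMIs doublets and 4.64% of those with at least 5, and the cells with only Y-linked transcripts made up 47.8% and 67.1% of them. Without the doublet calls the ratios fell in a range of 1.26 (B2m) to 2.11 (Tap2), with H2-K1 at 1.45 (1.35 to 1.55), and the interval of Nlrc5 (0.983 to 2.56) held 1. Among cells with only Y-linked transcripts H2-K1 was at 1.47 (1.36 to 1.60) and B2m at 1.2 (1.15 to 1.26), and the intervals of Tap2 and Nlrc5 held 1. With another random draw of UMIs the intervals of Tap2 (0.815 to 2.26) and Nlrc5 (0.813 to 1.89) held 1.

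Cells of tag 1 without an Ifit3 UMI still had more class I transcripts than such cells of the other tags. H2-K1 was 6.31 times higher (5.49 to 7.26) in them than in tag 2, 3.14 times higher (2.92 to 3.38) than in tag 3 and 4.98 times higher (4.59 to 5.41) than in tag 4. For Psmb8 these ratios were 13.8, 8.93 and 15.0, and for B2m 2.15, 1.53 and 2.11. Nlrc5 differed from them, with intervals that held 1 against tags 2 and 4 (1.42, 0.827 to 2.48, and 1.38, 0.909 to 2.06), and so did those of Tap2 against tags 2 and 3. A cell without an Ifit3 UMI in 5000 need not be a cell without Ifit3. Among cells with 0 Ifit3 UMIs, Isg15 was at 551 CPM in tag 1 and at 39.1, 155 and 25.0 in tags 2 to 4. Irf7 was at 178, 15.2, 34.4 and 7.49 CPM in tags 1 to 4. Both are genes of the interferon response, and their relation to the class I levels of these cells was not tested.

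**Figure D4:**
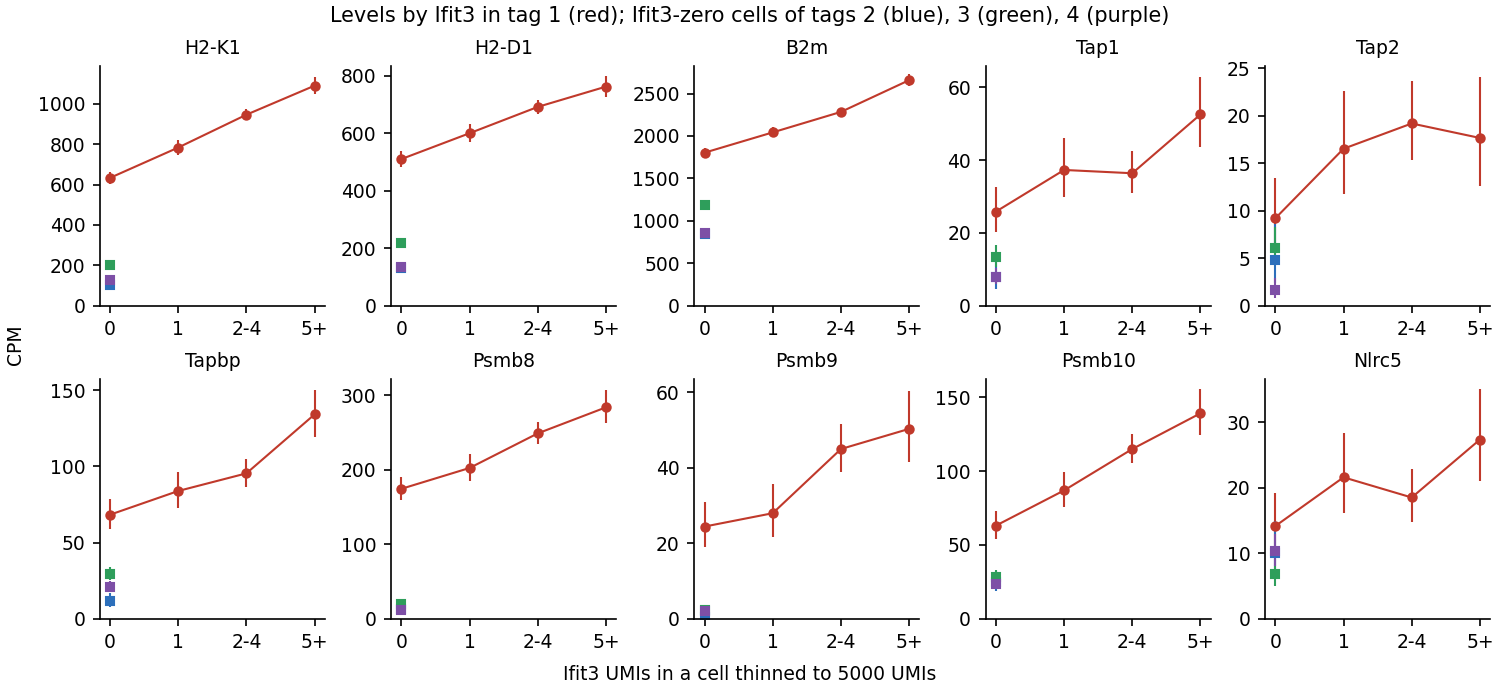
Level of each member (CPM, with exact intervals as bars) in thinned cells of tag 1 with 0, 1, 2 to 4 and 5 or more Ifit3 UMIs, in red, and in cells of tags 2, 3 and 4 with 0, as squares. H2-K1 climbs from 633 to 1090 CPM across the red points, and its squares lie at 100.4 to 201.

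Cell by cell the relations were loose. Over the 2397 thinned cells of tag 1, Pearson's r of the log counts with Ifit3 ran from 0.0562 (Tap2) to 0.305 (H2-K1), and between pairs of members from -0.0251 to 0.465 (H2-K1 and B2m) with a median of 0.0623. These cells share 1 library and 1 culture, Tap1, Tap2, Tapbp, Psmb9, Psmb10 and Nlrc5 had a mean under 1 UMI per cell at this depth, and no p is given. The 5 genes most like the mean of the members over these cells were Ifitm3 (r = 0.612), Bst2 (0.587), Isg15 (0.446), Ly6a (0.444) and Ly6e (0.436), of 10255 genes ranked. That mean was of unscaled log counts, so it speaks mainly for B2m, H2-K1 and H2-D1. The 5 genes were themselves abundant, at 698 to 4343 CPM in tag 1.

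Within each tag the hashtag counts were loosely related to the class I chains. Over thinned cells, Pearson's r of the log counts was 0.177, 0.196, 0.174 and 0.260 for H2-K1 in tags 1 to 4. For H2-D1 it ran from 0.0504 (tag 3) to 0.163 (tag 4). TotalSeq-A hashtags for mouse cells are known to be a mix of antibodies against CD45 and MHC class I, and the sources used here do not name the clones. Ptprc, which encodes CD45, was at 0 to 0.134 CPM in the 4 tags. The median of a tag's own hashtag UMIs was 364 in tag 1, 76 in tag 2, 113 in tag 3 and 67 in tag 4. When the thinned cells of each tag were put in 3 tiers of equal size by those UMIs, H2-K1 was higher in each tier than in the one before: 760, 866 and 976 CPM in tag 1, 76.7, 91.8 and 141 in tag 2, 161, 200.4 and 258 in tag 3, and 83.1, 106 and 192 in tag 4. H2-D1 was at 124 and 185 CPM in the middle and highest tiers of tag 4, and at 194, 243 and 231 across those of tag 3. B2m ran from 683 (651 to 718) to 1050 (1009 to 1092) CPM in tag 4 and from 1037 to 1402 in tag 3. Members that are no surface chains varied too. Tapbp was at 22, 28.6 and 36.6 CPM across the tiers of tag 3 and at 17.4, 20.8 and 29.3 in tag 4, but at 95.6, 88.4 and 98.4 in tag 1. Psmb8 was at 222, 222 and 242 CPM in tag 1, 8.81, 17.6 and 13.9 in tag 2, 22, 15.8 and 26 in tag 3 and 11.0, 11.0 and 16.1 in tag 4, and in each tag the intervals of the lowest and highest tiers overlapped. Psmb5 was at 245, 265 and 235 CPM across the tiers of tag 1, and at 259, 254 and 238 in tag 2. It was at 235, 239 and 210 CPM in tag 3, and at 240, 237 and 241 in tag 4. Median UMIs before thinning rose across the tiers in every tag, from 7312 to 8716 in tag 1 and 9808 to 12153 in tag 2. Actb ran from 6049 to 6596 CPM in tag 1 and from 7126 to 6694 in tag 2.

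In cells without a tag the class I chains were lower than in any tag, with H2-K1 at 81.9 CPM (79.2 to 84.7), H2-D1 at 101 and B2m at 702 (693 to 710), while Psmb8 was at 15.4. With stricter cutoffs that left tag 2 with 260 cells, its H2-K1 ratio to tag 1 was 0.151 in place of 0.118. For H2-K1 the highest tier of tags 2, 3 and 4 was at 258 CPM or less and the lowest tier of tag 1 at 760. The tiers of different tags rest on different hashtags and cutoffs. The part of the antibodies in which cells received a tag was not tested.

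**Figure D5:**
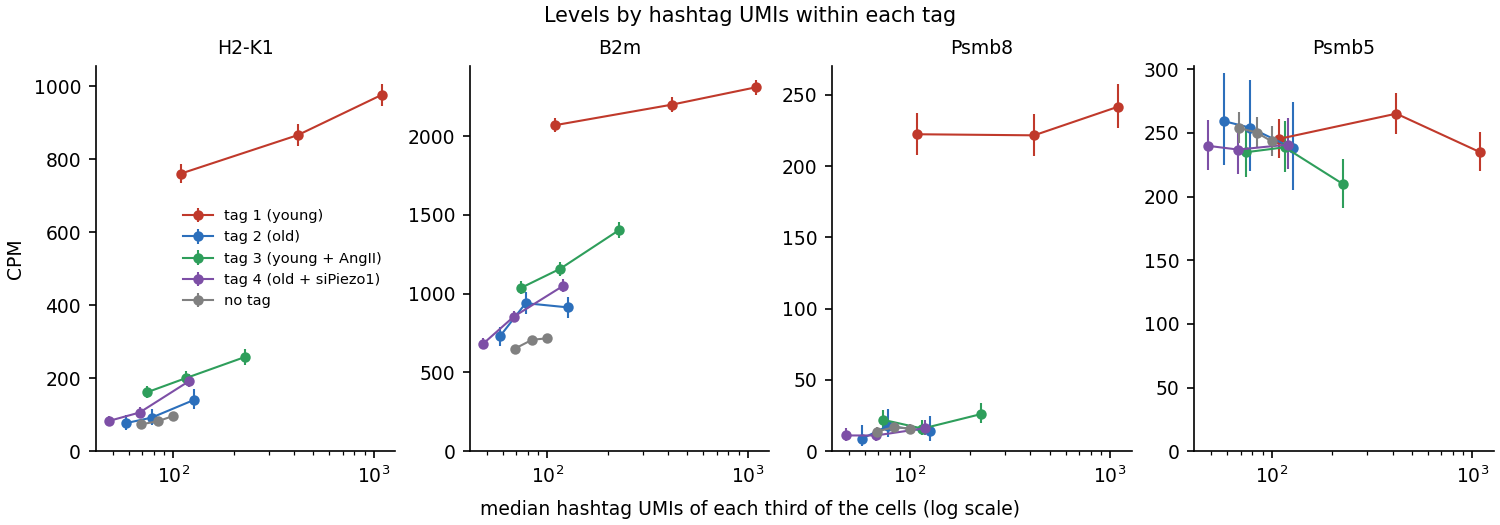
Level of 4 genes (CPM, with exact intervals as bars) in the 3 tiers of each tag's thinned cells, against the median of the tag's own hashtag UMIs (log scale); for cells without a tag the 4 hashtags were summed. H2-K1 climbs with the hashtag within every tag, from 83.1 to 192 CPM in tag 4, as does B2m except between the upper tiers of tag 2 (940 and 913 CPM). Psmb8 shows no steady order, with overlapping intervals in the outer tiers of each tag. Psmb5 is at 240 and 241 CPM in the outer tiers of tag 4 and at 235 and 210 in those of tag 3.

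The cells carried VSMC transcripts, with Acta2 at 378, 568, 294 and 174 CPM in tags 1 to 4 and Tagln at 415, 957, 698 and 428. Myh11, the muscle myosin of contractile cells, was at 1.94 to 7.89 CPM. The study describes the young group of this library by its high Acta2, Myl9 and Tagln. Acta2 and Tagln were higher in tag 2 than in tag 1, the opposite order under the reading of tags used here. The reason was not tested. Of 6 testable VSMC markers, the interval of the ratio of tag 2 to tag 1 lay above 1 for 5 and below 1 for 1. Other values had the direction that the study reports. With AngII it describes lower alpha-actin and higher transgelin, and tag 3 had less Acta2 and more Tagln than tag 1. It also describes higher Piezo1 in the old and AngII groups. Piezo1 was at 71.6, 89.6 and 108 CPM in tags 1 to 3. Of 12 leukocyte and macrophage markers 1 reached the level for testing (Cd14), their sum was 16.9 to 26.9 CPM, and C1qa, C1qb and Cd3e had 0 UMIs in all 4 tags. The 8 endothelial markers summed to 10.7 to 19.1 CPM, with Tie1 at 0. The 5 fibroblast markers summed to 525, 545, 722 and 748 CPM, mostly Dcn, and their part in the result was not tested. The median share of mitochondrial UMIs was 1.08%, 1.84%, 0.224% and 1.86% in tags 1 to 4. Among cells with 1 to 10% mitochondrial UMIs, H2-K1 in tag 2 was at a ratio of 0.124 to tag 1, and all 10 members stayed at least 2-fold lower. Most cells of tag 3 fall below that range, as its median shows. Over all alternatives, this filter among them, H2-K1 in tag 3 was at 0.205 to 0.293 of tag 1.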

How the data were processed

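The authors made 1 table of UMI counts with Cell Ranger 4 from a pooled droplet library of 4 hashed cultures and deposited it unfiltered, with 32285 genes, 4 hashtags and 2472397 barcodes. Its genome build and annotation were not given in the sources used here. From the deposited counts, barcodes with at least 2218 gene UMIs (a divisor of 10 under the 99th percentile of the 10000 deepest) and at least 200 genes were kept, which gave 13045 cells with 115033686 UMIs. Cells above exactly 1 hashtag cutoff received that tag. Scrublet (scanpy 1.11.5, expected rate 0.1) called 2606 cells (20.0%) doublets. They were kept in, and leaving them out was an alternative.

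CPM was computed from summed UMIs with exact Poisson intervals, ratios with exact conditional intervals and shares of cells with Clopper-Pearson intervals, all at 95% and covering counting error only (Python 3.11.15, numpy 2.4.6, scipy 1.17.1, pandas 2.3.3). With 1 culture a group no p-value was computed. Genes with at least 5 CPM over all cells were compared, and a ratio past 2-fold was counted. Cells were thinned without replacement to 5000 UMIs for values per cell. Alternatives changed the tag calls, cell filters, scaling, gene filter and the interferon gene used. The calculation was checked on simulated Poisson counts, which lack the extra spread between real cells. In thinned cells of tag 1 the variance of B2m was 3.44 times its mean. The check therefore does not show how well the intervals hold under such spread.

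Named were the 10 members, Ifit3, the standard subunits Psmb5, Psmb6 and Psmb7, Irf1 and Rfx5, of each other list the genes with the 3 largest log2 ratios of a comparison, and the 5 genes most like the members. A further gene that this rule names is not reported here. Other genes named, cell type markers among them, were chosen after their values were seen. The members and lists were chosen with earlier results of these data known, and the motifs and hashtag tiers with the sequences and counts in view. GENCODE vM21 (GRCm38) gave gene positions, matched on identifiers, and promoters come from RefSeq (GRCm38.p6). In GENCODE transcripts, none of the 410 words of 91 bases in the last 500 bases of each member occurred in another gene.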

Additional observations from a re-analysis of the deposited data

How the results depend on the processing

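Every member ratio that was taken stayed below 1 in tags 2 and 3 against tag 1 under all alternatives, and above 1 across Ifit3 steps. No ratio was taken for Nlrc5 in cells without a tag. It had 0 UMIs there in the 8 cells of the highest Ifit3 step and 141 in the lowest step. Among genes with at least 20 CPM, 6 of the 6 members that remained were at least 2-fold lower in tag 2 and 5 of 6 in tag 3. Every other alternative gave 9 or 10 for tag 2 and 8 or 9 for tag 3. Nlrc5 in tag 2, which lies at the 2-fold line, ranged from 0.429 to 0.594. In tag 4 against tag 2 the count of 1 became 2 after thinning, in cells with at least 5000 UMIs, in cells with only Y-linked transcripts (both lower) and in cells with at most 1 dividing-marker UMI. It became 0 in cells with 1 to 10% mitochondrial UMIs, among genes with at least 20 CPM and with tags given by the highest centred log-ratio. Across the Ifit3 steps the count of 3 became 1 without doublet calls, 6 with steps of Isg15, 9 of 9 tested in cells without a tag, 1 in cells with at most 1 dividing-marker UMI and 0 in cells with only Y-linked transcripts. The count in cells without a tag rested on 8 cells in the highest step. Tap2 had 1 UMI in them, Psmb9 2, Tapbp 3 and Tap1 4. The share of all tested genes past 2-fold was not taken under the alternatives, so their counts are given without it. The cause of these moves in the counts was not tested. The centred log-ratio, dividing-marker and, for Ifit3, Y-linked alternatives were added after the data were seen. No paired analysis was possible because each group was 1 culture. The depth limits Psmb9 most, with 4 UMIs in tag 2.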

Other observations

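Cells without a tag held a small number of cells with Ifit3, and the class I levels given here were higher in them than in untagged cells without Ifit3. Among untagged cells thinned to 5000 UMIs, 3806 had 0 Ifit3 UMIs, 98 had 1, 51 had 2 to 4 and 8 had 5 or more. H2-K1 was at 71.7, 200, 675 and 725 CPM across these steps, and B2m at 669, 1000, 1675 and 1600. Psmb8 was at 12.8, 53.1 and 114 CPM in the first 3 steps and Psmb9 at 1.42, 6.12 and 35.3. The Psmb9 values rest on 27, 3 and 9 UMIs, with intervals of 0.935 to 2.06, 1.26 to 17.9 and 16.1 to 67.0. In cells of tag 1 with 1 Ifit3 UMI, H2-K1 was at 783 CPM, B2m at 2042 and Psmb8 at 202, and with 2 to 4 at 946, 2283 and 249. Scrublet called 15.2%, 31.6%, 35.3% and 12.5% of the untagged cells in the 4 steps doublets, and their part in these levels was not tested.

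Dividing cells of tag 1 had less Ifit3, with a smaller difference in H2-K1. Of the thinned cells, 448 had at least 10 UMIs of 8 dividing-cell markers and 1344 had at most 1. Ifit3 was at 340 CPM in the dividing cells and 635 in the others, a ratio of 0.535. H2-K1 was at a ratio of 0.928 (0.881 to 0.977), H2-D1 at 1.01, B2m at 0.879 and Psmb8 at 1.08. Tapbp was lower (0.695) and Psmb9 higher (1.40, 1.12 to 1.75) in the dividing cells. In the other tags the interval of the H2-K1 ratio also lay below 1. Tag 2 had 0.614 (0.396 to 0.921), tag 3 had 0.713 (0.58 to 0.87) and tag 4 had 0.705 (0.58 to 0.851). B2m had 0.86, 0.698 and 0.714 in tags 2 to 4, and the differences between tags were not tested.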
